A study of Mus musculus with 3 samples.

Results

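Genes of the urea cycle and of amino acid breakdown were followed in the livers of mice that lack TMX and of wild-type mice, with and without an acute inflammatory liver injury. The set was given as 37 genes, and its members were found by matching their symbols, current names or synonyms to the annotated rows of the expression table. Of these, 32 had a row, each with 1 probe and with a value on all 3 arrays, out of 16390 named genes in the table and 10179 named genes measured on all 3 arrays. Ass1, Gls2, Bhmt, Sdsl and Amt had no row under any of these names and were not analysed here. The rule that lists the genes uses no measured value, but the genes were chosen with earlier results of these data known.

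The livers came from female C57BL/6 mice. One array held liver RNA of TMX-/- mice 24 h after an intraperitoneal injection of 3 ng lipopolysaccharide (LPS) and 10 mg D-galactosamine (GalN), one held RNA of untreated TMX-/- mice, one held RNA of wild-type mice after the same injection, and every array carried RNA of untreated wild-type liver in its other channel. TMX is a thioredoxin-related membrane protein of the endoplasmic reticulum. LPS is a component of the outer membrane of Gram-negative bacteria, and GalN sensitises hepatocytes to it. No source used here gives the age of the mice, how the TMX gene was deleted, how many mice stand behind a channel, or whether the wild-type RNA was a single preparation throughout. Because each group had 1 array, no difference could be tested against the spread between mice, and every count below describes these arrays.

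The liver is the main site at which amino acids are broken down. Their nitrogen is passed to the urea cycle, which runs in the hepatocytes around the portal vein and turns ammonia into urea, while a narrow ring of hepatocytes around the central vein captures the remaining ammonia as glutamine. The carbon skeletons are handled by separate routes for the aromatic, sulfur-containing, branched-chain and small amino acids, most of which depend on enzymes that hepatocytes make in large amounts.

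Values are log2 ratios to untreated wild-type liver, centred on each array, so that -1 means 2-fold lower and 1 means 2-fold higher. The table does not state the base of the logarithm or the numerator of the ratio. Tmx1, the targeted gene, stood at -3.88 in treated TMX-null liver, at -2.96 in untreated TMX-null liver, rank 1 from the lowest among 11351 genes there, and at 0.59 in treated wild-type liver. On that basis alone the ratio is read as the named liver over untreated wild-type liver, which is likely but not stated. With the opposite numerator every higher and lower below would turn round, and if the values are natural logarithms each log2 ratio is larger by a factor of 1.44. The SD of a single probe, taken from 81 genes with 2 probes, was 0.76 in treated TMX-null, 0.42 in untreated TMX-null and 0.42 in treated wild-type liver. For treated minus untreated TMX-null liver it was 0.67, and for the pair of treated arrays 0.59. It leaves out differences between mice. The spread over the 10179 genes was unequal as well, with SDs of 1.04, 0.40 and 0.48 for the same arrays in the same order.

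In treated TMX-null liver, 29 of the 32 genes were at least 2-fold lower than in untreated wild-type liver, as were 11.7% of all genes measured. The count was also 29 against untreated TMX-null liver (12.0% of all genes), where Nags, Tdo2 and Gldc were the exceptions, and 29 against treated wild-type liver (10.4% of all genes), where Nags, Gldc and Got1 were. With all arrays scaled to the same SD these counts were 24 against untreated wild-type (3.86% of all genes), 17 against untreated TMX-null (6.67%) and 13 against treated wild-type liver (5.0%). Untreated TMX-null liver itself had 0 of the 32 genes 2-fold lower than untreated wild-type liver (0.793% of all genes), and treated wild-type liver had 5 (1.64%). Inmt, Oat, Cth and Hpd lay lowest in treated TMX-null liver, and Gldc, Glul and Nags were the ones within 2-fold of untreated wild-type liver. Glul, the glutamine synthetase gene, was the only one of the 32 that was 2-fold higher on any array, in untreated TMX-null liver (4.99% of all genes higher) and in treated wild-type liver (6.81%).

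**Figure D1:**
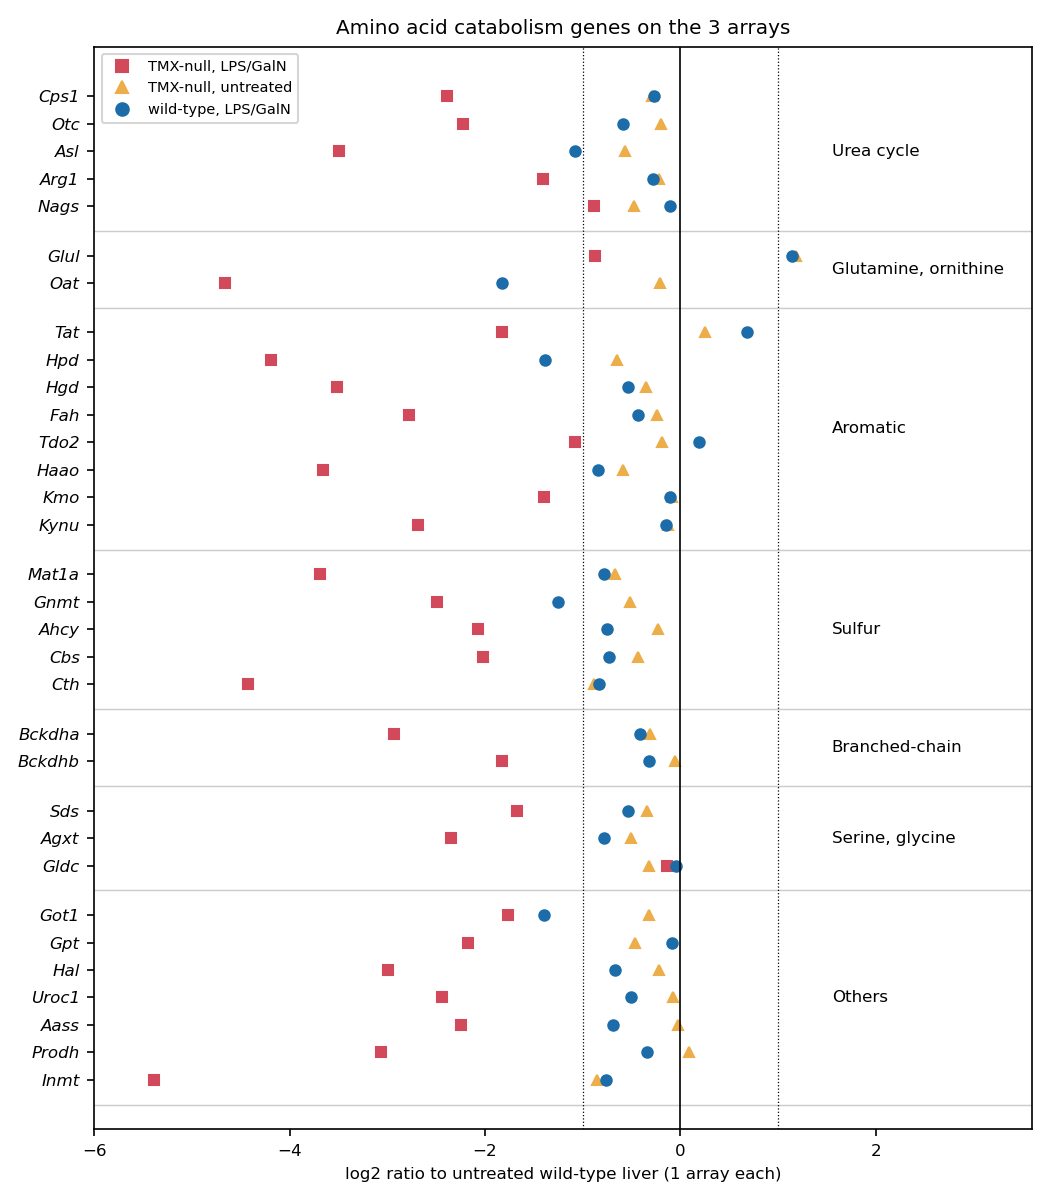
Log2 ratio of each of the 32 genes to untreated wild-type liver (horizontal axis), grouped by pathway, with 1 point per array: squares for treated TMX-null, triangles for untreated TMX-null and circles for treated wild-type liver. Dotted lines mark 2-fold; the squares lie left of the dotted line at -1 for 29 of the 32 genes, and Gldc, Nags and Glul are the exceptions.

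The promoter letters of 4 genes are shown because they stand for the patterns described below: Inmt, the lowest of the set, Hgd of the tyrosine route, and Oat and Glul, which lay on opposite sides of 0 in treated wild-type liver. Each run covers the 250 bases before the RefSeq gene start, 5′ to 3′ on the gene's own strand, in build GRCm38.p6. Inmt lies at chr6:55174991-55175240 on the minus strand and Hgd at chr16:37579903-37580152 on the plus strand. Oat lies at chr7:132576399-132576648 on the minus strand and Glul at chr1:153899679-153899928 on the plus strand. Capitals mark matches to the motif letters searched on both strands, and a match on the opposite strand appears as its reverse complement.
Inmt: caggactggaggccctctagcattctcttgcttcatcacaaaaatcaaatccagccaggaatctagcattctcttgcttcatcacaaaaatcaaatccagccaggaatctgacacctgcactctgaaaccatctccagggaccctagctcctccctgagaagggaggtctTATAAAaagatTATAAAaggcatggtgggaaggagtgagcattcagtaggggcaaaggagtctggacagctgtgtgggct
Hgd: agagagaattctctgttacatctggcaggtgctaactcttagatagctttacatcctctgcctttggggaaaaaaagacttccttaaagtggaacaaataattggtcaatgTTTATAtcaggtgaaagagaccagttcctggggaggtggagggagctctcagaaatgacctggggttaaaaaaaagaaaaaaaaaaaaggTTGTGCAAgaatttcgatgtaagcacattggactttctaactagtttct
Oat: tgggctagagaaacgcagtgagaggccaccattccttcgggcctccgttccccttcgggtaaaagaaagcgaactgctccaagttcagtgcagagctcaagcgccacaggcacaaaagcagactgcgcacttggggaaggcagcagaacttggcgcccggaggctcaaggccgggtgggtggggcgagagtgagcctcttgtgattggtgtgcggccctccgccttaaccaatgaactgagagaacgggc
Glul: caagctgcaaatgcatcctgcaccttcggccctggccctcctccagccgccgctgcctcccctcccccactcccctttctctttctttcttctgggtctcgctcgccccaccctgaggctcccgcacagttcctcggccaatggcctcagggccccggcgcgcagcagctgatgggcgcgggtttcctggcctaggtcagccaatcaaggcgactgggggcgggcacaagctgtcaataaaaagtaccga

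RefSeq windows were at hand for 24 of the 32 genes and for 27025 genes in all. Inmt held TATAAA, the letters of a TATA box, in 2 places, and Hgd held them once on the opposite strand. The letters TTGCNNAA, of the C/EBP type, were found in Hgd, Hal and Aass, which is 12.5% of the 24 windows, against 9.55% of all windows. TATAAA was found in 16.7% of the 24 and in 13.0% of all. The HNF1-type letters GTTAAT were found in 4.17% of the 24 and in 6.52% of all, the letters TGACG, part of the cyclic AMP response element, in 4.17% and 17.9%, and the letters TGTTCT, part of the glucocorticoid response element, in 12.5% and 16.2%. The HNF4-type letters CAAAGTCCA were in 0 of the 24 windows and in 0.381% of all. No motif overlapped another in the 4 windows shown, and a match describes letters only.

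The urea cycle genes lay 2-fold lower in 4 of 5 cases in treated TMX-null liver, in 1 of 5 in treated wild-type liver and in 0 of 5 in untreated TMX-null liver. Of all genes, 11.7%, 1.64% and 0.793% did, in the same order, and the 0 of 5 is near its share. Cps1, which fixes ammonia as carbamoyl phosphate in the first step of the cycle, stood at -2.39 in treated TMX-null, -0.29 in untreated TMX-null and -0.27 in treated wild-type liver. Otc, which joins carbamoyl phosphate to ornithine, stood at -2.22, -0.20 and -0.58 on the same arrays. Asl, which splits argininosuccinate into arginine and fumarate, was the lowest of the cycle at -3.50, -0.56 and -1.08, and was thus 11.3-fold below untreated wild-type liver in the first of these. Arg1, the arginase that releases urea, stood at -1.40, -0.22 and -0.28. Nags, whose product N-acetylglutamate activates Cps1, stood at -0.89, -0.48 and -0.10 and stayed within 2-fold throughout. In treated TMX-null liver all 5 lay farther from 0 than the SD of a single probe. In untreated TMX-null liver Asl and Nags did, and in treated wild-type liver Asl and Otc did.

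Set against treated wild-type liver, treated TMX-null liver had Asl at -2.41, Cps1 at -2.11, Otc at -1.64, Arg1 at -1.12 and Nags at -0.78. The median over the 5 genes was -1.64 in that comparison and -2.03 against untreated TMX-null liver.

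Glul and Oat lay on opposite sides of 0 in treated wild-type liver. Glul, which makes glutamine from glutamate and ammonia, stood at -0.88 in treated TMX-null, 1.18 in untreated TMX-null and 1.15 in treated wild-type liver. It was 2.27-fold higher in untreated TMX-null and 2.21-fold higher in treated wild-type liver than in untreated wild-type liver, and these ratios share the untreated wild-type RNA. Treated wild-type minus untreated TMX-null liver was -0.04. Treated TMX-null liver was 4.06-fold lower than treated wild-type liver (-2.02) and 4.17-fold lower than untreated TMX-null liver (-2.06), and the wild-type RNA drops out of these differences if it was the same preparation. Oat, ornithine aminotransferase, which like Glul is made by hepatocytes around the central vein, stood at -4.67, -0.21 and -1.83. Its value in treated wild-type liver was the lowest of the 32 genes and rank 19 from the lowest of 12338 genes.

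The aromatic amino acid genes were all 2-fold lower in treated TMX-null liver, 8 of 8, with a median of -2.73. In treated wild-type liver 1 of 8 was 2-fold lower and in untreated TMX-null liver 0 of 8 were. Of all genes, 11.7%, 1.64% and 0.793% were 2-fold lower, in the same order, and the 0 of 8 is near its share. Along the tyrosine route, Tat, the aminotransferase that starts it, stood at -1.82 in treated TMX-null, 0.26 in untreated TMX-null and 0.68 in treated wild-type liver. Hpd, the dioxygenase of the following step, stood at -4.19, -0.65 and -1.38, and Hgd, which opens the ring of homogentisate, at -3.51, -0.35 and -0.54. Fah, the last enzyme of the route, stood at -2.78, -0.24 and -0.44. The entry enzyme and the steps after it thus lay on opposite sides of 0 in treated wild-type liver and on the same side in treated TMX-null liver.

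Tryptophan is opened by Tdo2, whose gene stood at -1.08 in treated TMX-null, -0.19 in untreated TMX-null and 0.19 in treated wild-type liver. The kynurenine genes that follow it lay lower in treated TMX-null liver. Kynu, kynureninase, stood at -2.69, -0.13 and -0.15, Kmo, kynurenine monooxygenase, at -1.40, -0.09 and -0.11, and Haao, which makes the precursor of quinolinate, at -3.66, -0.59 and -0.85. Kynu and Kmo were within the SD of a single probe of untreated wild-type liver on both other arrays. Tdo2 had the smallest difference of the 8 between the treated livers, at -1.27, and Hgd had the largest, at -2.98.

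The sulfur amino acid genes formed the group with the lowest median in treated wild-type liver, at -0.78, and also in untreated TMX-null liver, at -0.52. Both are ratios to untreated wild-type liver. In treated wild-type liver 1 of 5 was 2-fold lower (1.64% of all genes). All 5 were 2-fold lower in treated TMX-null liver (11.7% of all genes), with a median of -2.49. Mat1a, which makes S-adenosylmethionine in liver, stood at -3.69 in treated TMX-null, -0.67 in untreated TMX-null and -0.78 in treated wild-type liver. Gnmt, the glycine methyltransferase that uses up surplus S-adenosylmethionine, stood at -2.49, -0.52 and -1.26, and Ahcy, which hydrolyses S-adenosylhomocysteine, at -2.08, -0.23 and -0.75. Of the genes that lead from homocysteine to cysteine, Cbs stood at -2.02, -0.43 and -0.73, and Cth, cystathionine gamma-lyase, at -4.43, -0.88 and -0.83. Treated wild-type minus untreated TMX-null liver was -0.74 in Gnmt, -0.52 in Ahcy, -0.30 in Cbs, -0.12 in Mat1a and 0.05 in Cth. Without treatment, TMX-null liver had its lowest value among the 32 in Cth. There 0 of the 32 were 2-fold below untreated wild-type liver (0.793% of all genes). Treated TMX-null liver was 12.1-fold lower than treated wild-type liver in Cth (-3.60) and 7.47-fold lower in Mat1a (-2.90), against 2.36-fold to 2.50-fold in Gnmt, Cbs and Ahcy.

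Bckdha and Bckdhb encode subunits of the branched-chain ketoacid dehydrogenase, the committed step for leucine, isoleucine and valine. Both lay low in treated TMX-null liver. Bckdha stood at -2.94 in treated TMX-null, -0.31 in untreated TMX-null and -0.41 in treated wild-type liver, and Bckdhb at -1.82, -0.05 and -0.32. Neither reached 2-fold on the last 2 of these arrays. Treated TMX-null liver was 5.75-fold lower than treated wild-type liver in Bckdha and 2.84-fold lower in Bckdhb. Dbt and Dld, genes of other subunits of the dehydrogenase outside the members, stood at -1.12 and -0.27 in treated TMX-null liver. Between the treated livers they stood at -1.38 and -0.49, and Dld was within the SD of a single probe in both.

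Among the serine and glycine genes, Gldc stood apart. It encodes the decarboxylase of the glycine cleavage system and stood at -0.13 in treated TMX-null, -0.32 in untreated TMX-null and -0.04 in treated wild-type liver, all within the SD of a single probe. Sds, serine dehydratase, stood at -1.68, -0.34 and -0.54. Agxt, which turns glyoxylate into glycine in peroxisomes, stood at -2.35, -0.50 and -0.79. Against untreated TMX-null liver, Gldc was the only one of the 32 genes on the higher side in treated TMX-null liver, at 0.18.

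The other members were 2-fold lower in treated TMX-null liver in 7 of 7 cases (11.7% of all genes). Inmt, an N-methyltransferase of indolamines and related compounds, stood at -5.39 in treated TMX-null, -0.85 in untreated TMX-null and -0.76 in treated wild-type liver. Its value in treated TMX-null liver was 41.9-fold below untreated wild-type liver and rank 2 from the lowest of 11755 genes. Hal and Uroc1, the enzymes that start histidine breakdown, stood at -3.00, -0.22 and -0.66, and at -2.44, -0.08 and -0.50. Prodh, proline dehydrogenase, stood at -3.06, 0.08 and -0.34, and Aass, the bifunctional enzyme that opens lysine breakdown, at -2.25, -0.03 and -0.69. Both lay close to untreated wild-type liver in untreated TMX-null liver, within the SD of a single probe.

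The cytosolic transaminase genes differed from each other. Got1, aspartate aminotransferase, stood at -1.76 in treated TMX-null, -0.32 in untreated TMX-null and -1.40 in treated wild-type liver, and the treated livers differed by -0.37, less than the SD of a single probe. Gpt, alanine aminotransferase, stood at -2.17, -0.47 and -0.09, and the treated livers differed by -2.09.

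The counts can be read against all named genes with a value in each comparison. In treated TMX-null liver against untreated wild-type liver, 29 of the 32 genes were 2-fold lower and 0 were higher, where 11.7% of all genes were lower and 16.3% were higher. The median over the 32 genes was -2.37, against 0.08 over all genes. Against untreated TMX-null liver, the response to LPS/GalN without TMX, 29 were lower and 0 higher, with 12.0% of all genes lower and 11.3% higher, and the medians were -2.09 and -0.01. With the arrays scaled to the same SD 17 were lower, with 6.67% of all genes, and the median over the 32 was -1.14. Against treated wild-type liver 29 were lower and 0 higher, with 10.4% of all genes lower and 10.1% higher, and the medians were -2.05 and 0.01. Under the same scaling 13 were lower, with 5.0% of all genes, and the median over the 32 was -0.73. These 3 comparisons share the treated TMX-null array, so they are not independent of each other.

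In treated against untreated wild-type liver, 5 of the 32 genes were 2-fold lower (Oat, Got1, Hpd, Gnmt and Asl) and 1 was higher (Glul), where 1.64% of all genes were lower and 6.81% were higher. The median over the 32 was -0.54, against 0.05 over all genes, and 29 of the 32 were below 0, with Glul, Tat and Tdo2 above it. In untreated TMX-null against untreated wild-type liver, 0 were 2-fold lower and 1 was higher, where 0.793% of all genes were lower and 4.99% higher. The median was -0.30, against 0.03, and 29 of 32 were below 0, with Glul, Tat and Prodh above it. Over the 10179 genes measured on all 3 arrays, as every member was, the shares of genes 2-fold lower were 13.2% in treated TMX-null liver, 0.835% in untreated TMX-null liver and 1.75% in treated wild-type liver, and the shares 2-fold higher were 13.6%, 1.78% and 2.80%.

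**Figure D2:**
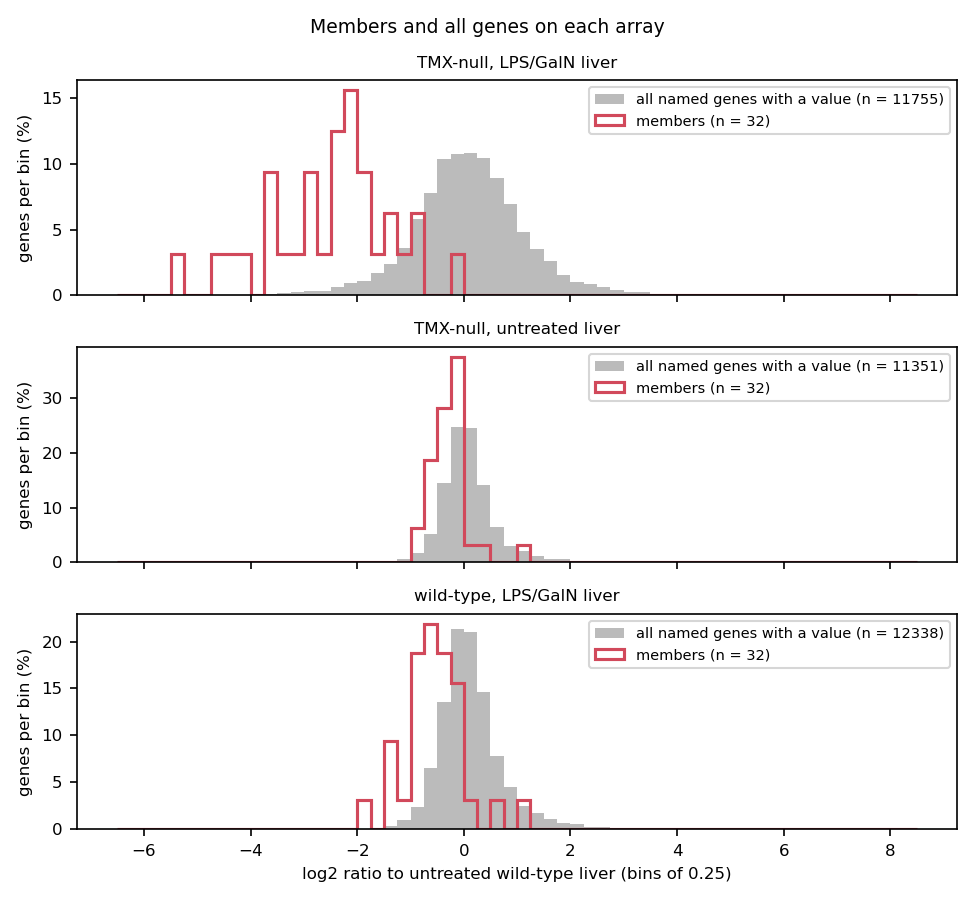
Share of genes (vertical axis, percent per bin of 0.25) by log2 ratio to untreated wild-type liver (horizontal axis) on each array, in grey for all named genes with a value and as a red outline for the 32 genes of amino acid breakdown. The red outline is centred at -2.37 in treated TMX-null, at -0.30 in untreated TMX-null and at -0.54 in treated wild-type liver by its median, while the grey medians lie between 0.03 and 0.08.

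Setting treated wild-type liver against untreated TMX-null liver, a comparison in which genotype and treatment both differ and the wild-type RNA drops out if it was the same preparation, left a median of -0.20 over the 32 genes, with 24 of 32 below 0. In that comparison Oat (-1.62) and Got1 (-1.07) were 2-fold lower and 0 of the 32 were higher, where 2.37% of all 10703 genes were lower and 2.2% were higher. Hpd and Gnmt stood at -0.73 and -0.74, and Asl at -0.52.

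The responses to LPS/GalN in the 2 genotypes were compared gene by gene. In TMX-null liver the response was the treated minus the untreated array, and in wild-type liver it was the ratio to untreated liver. The value was lower in the TMX-null response for 31 of 32 genes, the exception being Gldc. Of the 32, 5 were 2-fold lower in both responses, 24 in the TMX-null response alone and 3 in neither (Nags, Tdo2 and Gldc). Over the 10179 genes measured on all 3 arrays, 12.1% were 2-fold lower in the TMX-null response and 1.75% in the wild-type response. The overlap of the responses over all genes was not counted, so this split is not read as particular to the 32. The difference of the responses, TMX-null minus wild-type, had a median of -1.84, against 0.00 over all 10179 genes, and 25 of 32 genes were at -1 or below, where 11.6% of all genes were. The difference was most negative for Inmt (-3.78), Glul (-3.21), Prodh (-2.81), Tat (-2.76) and Cth (-2.71), and smallest for Got1 (-0.05), Gldc (0.23) and Nags (-0.30). This result depends on the unequal spread of the arrays. With all arrays scaled to the same SD, the median was -0.33, 22 of 32 genes were below 0, and 4 were at -1 or below, where 10.9% of all genes were. Those 4 were Glul (-3.61), Tat (-2.23), Prodh (-1.44) and Kynu (-1.15), while Inmt stood at -0.89, Oat at -0.11, and Asl at 0.16.

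**Figure D3:**
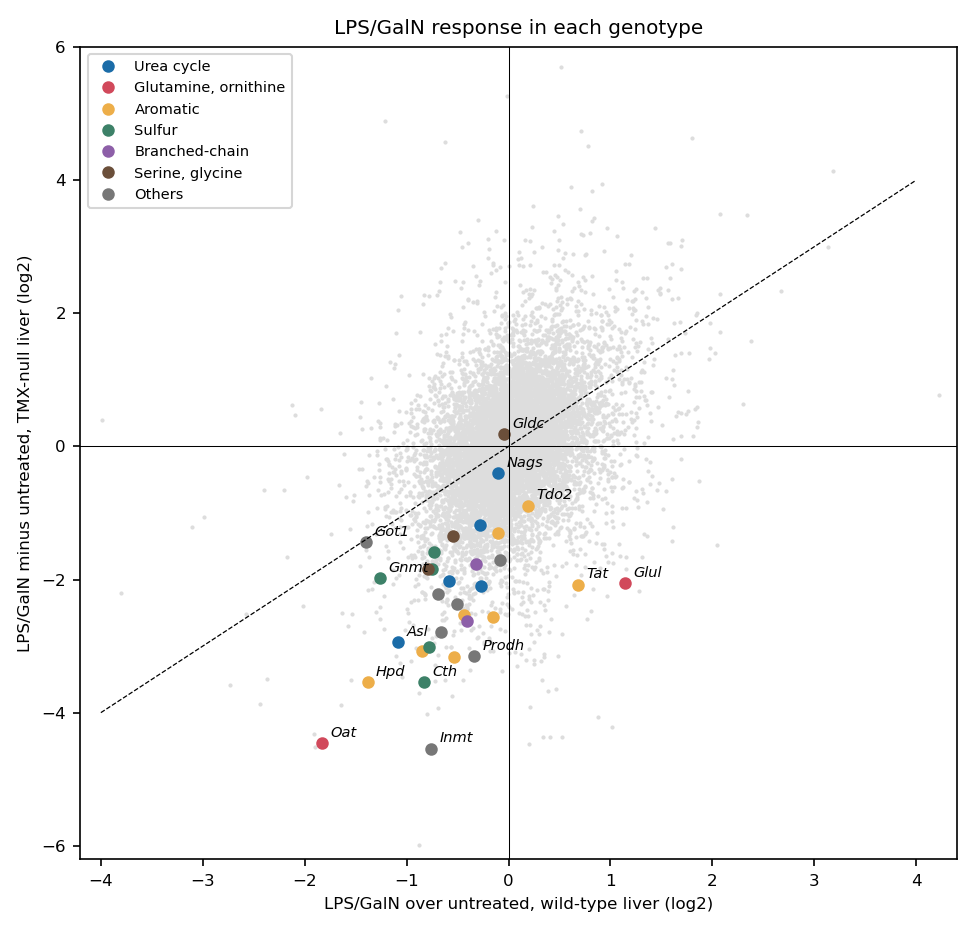
Response to LPS/GalN in TMX-null liver (vertical axis, log2, treated minus untreated array) against that in wild-type liver (horizontal axis, log2 ratio to untreated), with 1 point per gene: colours for the 32 genes by pathway, light grey for all other genes, and a dashed line where both are equal. All coloured points but Gldc lie below the dashed line, Oat is the farthest to the left at -1.83, and Glul and Tat lie to the right of 0 and below it.

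By group, the medians of treated TMX-null relative to treated wild-type liver were -2.52 in the 8 aromatic genes, -2.43 in the glutamine and ornithine pair, -2.09 in the 7 other members and -2.01 in the branched-chain pair. Urea cycle genes stood at -1.64 (5 genes), sulfur genes at -1.32 (5) and serine and glycine genes at -1.14 (3). These medians differ by less than the range within most groups, which spanned -2.98 and -1.27 in the aromatic and -3.60 and -1.24 in the sulfur genes. The order of the groups depended on the scaling. With all arrays at the same SD, the medians were -1.15 in the glutamine and ornithine pair, -1.04 in the aromatic genes, -0.90 in the branched-chain pair, -0.55 in the urea cycle, -0.29 in the serine and glycine genes and -0.26 in the sulfur genes. Under that scaling 30 of the 32 genes lay below 0, and Gnmt (0.12) and Got1 (0.70) lay above it.

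Other genes of the same pathways were examined from a list of 105 genes that included amino acid transporters, of which 94 had a row. Between the treated livers 49 of 85 measured were 2-fold lower and 4 higher, where 10.4% of all genes were lower and 10.1% higher, with a median of -1.21. Against untreated TMX-null liver 49 of 80 were lower and 3 higher, where 12.0% and 11.3% of all genes were, with a median of -1.32. Against untreated wild-type liver, treated TMX-null liver had 52 of 88 lower and 7 higher, where 11.7% and 16.3% of all genes were. Untreated TMX-null liver had 2 of 82 lower and 1 higher (0.793% and 4.99% of all genes), and treated wild-type liver had 6 of 90 lower and 5 higher (1.64% and 6.81%). The counts of higher genes were thus below the share over all genes on each array, and the higher genes are given as values only. In treated TMX-null liver the lowest outside transport were Afmid (-3.57), a formamidase of the kynurenine route, Qdpr (-3.16), which regenerates tetrahydrobiopterin for phenylalanine hydroxylase, and Pipox (-2.86), pipecolic acid and sarcosine oxidase. They stood at -0.32, -0.55 and -0.38 in untreated TMX-null liver and at -1.06, -0.66 and -0.63 in treated wild-type liver.

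The highest values in treated TMX-null liver were those of Psat1 (3.45) and Psph (2.02), the last steps of serine synthesis, Arg2 (2.92), the mitochondrial arginase, Asns (2.00), asparagine synthetase, and Gclc (1.70), which begins glutathione synthesis. In treated wild-type liver Psat1 stood at 1.503, Psph at 0.83, Asns at 0.27 and Gclc at 1.02. Pycr1 (1.58) and Aldh18a1 (1.40), both of proline synthesis, and Mtr (1.01), methionine synthase, were the other 3 genes 2-fold higher there. Of the listed genes with a value in untreated TMX-null liver, Pycr1 was the 1 gene 2-fold higher (1.34). Psat1, Asns, Mtr and Aldh18a1 had no value in untreated TMX-null liver, and Pycr1 had none in treated TMX-null liver. Arg2 had a value on the treated TMX-null array alone, where Arg1 stood at -1.40. The branched-chain genes outside the members, Dbt and Dld among them, were 2-fold lower in 14 of 19 cases between the treated livers. The remaining aromatic genes were lower in 10 of 12. In the list of urea cycle and ammonia genes outside the members, 1 of 8 was 2-fold lower and 1 higher between the treated livers, near the 10.4% and 10.1% of all genes, with a median of -0.25.

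**Figure D4:**
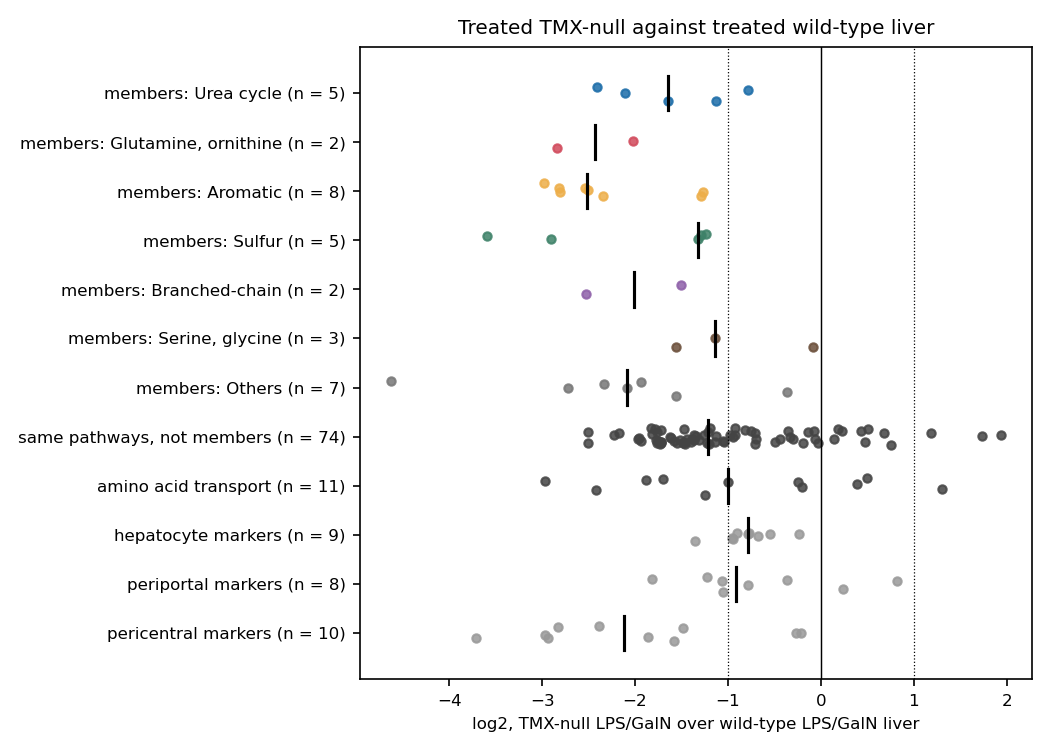
Log2 ratio of treated TMX-null over treated wild-type liver (horizontal axis) for the members by pathway, for other genes of the same pathways, for amino acid transport and for hepatocyte marker lists, with 1 point per gene and a vertical bar at each median. The bars of all member groups lie between -2.52 and -1.14, those of hepatocyte and periportal markers at -0.78 and -0.92, and that of pericentral markers at -2.12.

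Markers of the cells in the tissue were read on the same arrays. Hepatocyte markers, 9 of 12 with a row, had medians of -1.72 in treated TMX-null, -0.53 in untreated TMX-null and -0.36 in treated wild-type liver. Among these 9, 6 were 2-fold lower in treated TMX-null (11.7% of all genes), 0 in untreated TMX-null (0.793%) and 4 in treated wild-type liver (1.64%). The LPS/GalN response without TMX had 5 of 9 lower (12.0% of all genes). Between the treated livers the median was -0.78 and all 9 were below 0. There 1 of 9 was 2-fold lower, near the 10.4% of all genes. In each of these comparisons 0 of the 9 were 2-fold higher. Albumin (Alb) stood at -1.84, -0.73 and -1.06 on the 3 arrays, Cebpa, a transcription factor gene of hepatocytes, at -1.89, -0.65 and -1.11, and Hnf4a, another, at -0.28, 0.04 and -0.04. Their difference of responses had a median of -0.16. Markers of hepatocytes around the portal vein, a list without members that shares Alb, had a median of -0.92 between the treated livers (4 of 8 lower). They ran from -1.82 for Pck1 to 0.82 for Cdh1, with 2 above 0. Those around the central vein had -2.12 (8 of 10 lower) and ran from -3.71 for Cyp1a2 to -0.21 for Tbx3. Among them the glutamate transporter gene Slc1a2, also counted among the transporters, stood at -2.96 and the cytochrome P450 gene Cyp2e1 at -2.93. Of all genes, 10.4% were lower.

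Macrophage markers had medians of 1.37 in treated TMX-null, 0.79 in untreated TMX-null and 1.19 in treated wild-type liver (9, 3 and 9 of 12 at least 2-fold higher). Of all genes, 16.3%, 4.99% and 6.81% were 2-fold higher, in the same order. Neutrophil and monocyte markers had 3.16, -0.19 and 0.82, over 6, 4 and 5 measured genes, and ran from -2.50 for Ly6g to 4.45 for S100a9 in treated TMX-null liver. Stellate cell markers stood at 1.0, 0.13 and 0.48, over 6, 5 and 7 measured genes. Lymphocyte markers stood at 0.79, 1.16 and 0.34 over 5, 3 and 6 measured genes, and these differing sets make the medians not comparable between arrays. The 3 genes behind the 1.16 lay between -0.10 (Ms4a1) and 2.21 (Nkg7). Sinusoidal endothelium markers stood at 0.33, -0.01 and -0.01 over the same number of genes (6), and cholangiocyte markers at 0.60, -0.25 and -0.14 (4). Their part in the low values of the amino acid genes was not tested. In whole liver, fewer hepatocytes and less RNA per hepatocyte cannot be told apart. Log ratios carry no level, so the tissue could not be checked against the abundance of its markers.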

How the data were processed

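Liver RNA was measured on 3 arrays with 2 channels each, Cy5 for untreated wild-type liver and Cy3 for the liver of interest, per the labels. Each group had 1 array and dyes were not exchanged. The authors deposited a table of log ratios for 23473 rows, read here as log2. Image analysis, background correction, normalization, logarithm base and numerator are not given in the sources.

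The platform annotation gave 1 symbol to 16631 rows and none to 6842, and 3947 symbols were updated to the mouse RefSeq table (GRCm38.p6), which also supplied promoters. With pandas 2.3.3 in Python 3.11.15, arrays were centred on their median over 10179 genes with a probe measured on all 3 (-0.07 in treated TMX-null, -0.03 in untreated TMX-null and -0.05 in treated wild-type liver), differences were taken per probe and probes of a gene averaged. Genes were counted at 2-fold. No test was possible with 1 array a group, and arrays limit the precision. Code was tested on simulated data.

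Members and lists were chosen with earlier results of these data known. All members are named, and of the other pathway genes those among the 5 highest or lowest of a comparison. Dbt and Dld are also named, as subunits of the branched-chain ketoacid dehydrogenase. Marker genes named singly were chosen after their values were seen. Alternatives were deposited centring, equal spread (each array divided by its SD and multiplied by the geometric mean of the SDs), genes on all 3 arrays, natural logarithms, the probe nearest to 0, a 1.5-fold threshold and, chosen after seeing the data, untreated TMX-null liver as control.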

Additional observations from a re-analysis of the deposited data

Results flagged for a closer look

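The LPS/GalN responses of Glul and Tat lay on opposite sides of 0 in the 2 genotypes, by more than the SD of a single probe in each. Glul stood at -2.06 in the TMX-null response and at 1.15 in the wild-type response, a difference of -3.21, and Tat at -2.08 and 0.68, a difference of -2.76. The difference between genotypes was not tested, since each response rests on 1 array or a pair of arrays. With the arrays scaled to the same SD the differences were -3.61 and -2.23. Glul stood at 1.18 in untreated TMX-null liver, so its response there starts from a value above untreated wild-type liver.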

How the results depend on the processing

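Deposited centring, genes on all 3 arrays and the probe nearest to 0 moved no count of members by over 1.5 times and no median by more than the SD of a single probe. Scaling the arrays to the same SD gave member medians of -1.34 in treated TMX-null against untreated wild-type, -1.14 against untreated TMX-null and -0.73 against treated wild-type liver. It gave 17 members 2-fold lower against untreated TMX-null and 13 against treated wild-type liver, with 6.67% and 5.0% of all genes lower, and 2 in untreated TMX-null liver (3.37%). Under it Nags turned to 0.20 in the TMX-null response, and Gnmt (0.12) and Got1 (0.70) turned between the treated livers. Read as natural logarithms, the medians were -3.42, -3.01 and -2.96, and 2 members were 2-fold lower in untreated TMX-null (3.29% of all genes) and 12 in treated wild-type liver (4.94%). At 1.5-fold 14 were lower and 2 higher in treated wild-type liver (7.68% and 15.8% of all genes), and 5 were lower in untreated TMX-null liver (5.36%). With untreated TMX-null liver as the control, chosen after seeing the data, treated wild-type liver had 2 lower and 0 higher (2.37% and 2.2% of all genes). Of 30 medians over member groups, 17 moved by more than the SD of a single probe with equal spread and 14 with natural logarithms, and 0 changed sign. The cause of the unequal spread was not tested. There were no replicates to leave out, and signal over background was not analysed here.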

Other observations

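Amino acid transporter genes lay on both sides. Slc1a2, the glutamate transporter of hepatocytes around the central vein, stood at -3.41 in treated TMX-null, 0.10 in untreated TMX-null and -0.45 in treated wild-type liver. Slc38a3, which moves glutamine, stood at -3.10, -0.35 and -1.22. Slc3a2, the heavy chain shared by several exchangers of large amino acids, stood at 0.99, -0.48 and -0.32 and was 2-fold higher in treated TMX-null than in treated wild-type liver (1.30) and than in untreated TMX-null liver (1.47). Of the 13 transporter genes, 5 of 11 measured were 2-fold lower and 1 higher between the treated livers. Of all genes, 10.4% were lower and 10.1% higher, so the count of higher transporters was near the share over all genes. Slc7a5, a light chain that pairs with Slc3a2, stood at 0.26, -0.40 and -0.24 on the 3 arrays, below 2-fold on each.

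Bckdk, the kinase that inactivates the branched-chain ketoacid dehydrogenase, stood at 0.45 in treated TMX-null, -0.28 in untreated TMX-null and -0.30 in treated wild-type liver. Each of these values was within the SD of a single probe. Bckdk differed by 0.75 between the treated livers, where that SD was 0.59. Of the measured subunits of its target, Bckdha (-2.52), Bckdhb (-1.50) and Dbt (-1.38) were 2-fold lower there, and Dld (-0.49) was not.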
